A study of Mus musculus with 22 samples.

Results

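The cadherins and protocadherins described here are the coding genes of a nuclear RNA-seq table of the mouse lumbar dorsal horn whose symbols are Cdh followed by a number or begin with Pcdh. The name rule matched 58 genes, and 56 of them reached a normalized count of at least 10 in at least 3 of 22 libraries. They are 56 of the 18614 genes tested and fall into 21 Cdh genes, 23 clustered protocadherins and 12 non-clustered protocadherins. The rule used names and overall abundance and no difference between samples. Cdh16 was just inside the threshold, with 4 libraries at 10 or more, and Pcdhb1 with 2 and Cdh26 with 1 were just outside. All 22 libraries reached 10 for 47 of the 56 genes.

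Cadherins are membrane proteins whose extracellular repeats bind, with calcium, to cadherins on a neighbouring cell, mostly to their own kind or to a close relative. Classical cadherins of type I and type II are tied to the actin cytoskeleton by catenins, and combinations of type II cadherins mark neuron pools and layers in the developing spinal cord and brain. Clustered protocadherins are made from 3 neighbouring gene arrays, named alpha, beta and gamma, and give single neurons a combination of isoforms used in telling their own branches from those of others. Non-clustered protocadherins of the delta groups carry longer cytoplasmic tails that signal to the actin machinery and change adhesion at synapses.

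Nuclei came from pDyn-Sun1-GFP mice, in which a nuclear envelope protein fused to GFP is made under control of the prodynorphin promoter, so that all groups share this 1 transgenic background. Sorting divided each animal's dorsal horn nuclei into a GFP+ sample, labelled as pDyn lineage, and a GFP- sample of the unidentified remaining nuclei, with 5000 nuclei each. The 6 groups are GFP+ and GFP- nuclei at postnatal day 7 (P7, 4 libraries each), at P21 (3 each) and at P80 (4 each), from 11 animals of both sexes. Whether labelling needs an active promoter at the time of the sort cannot be read from the sources used here.

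Libraries held 4244987 to 10849169 reads counted to genes (median 5359703). Prodynorphin (Pdyn), which checks the sort, lay between 405 and 663 in the 11 GFP+ libraries and between 0 and 15.7 in the 11 GFP- libraries. All 14 pan-neuronal markers were higher in GFP+ nuclei, and all 10 oligodendrocyte, all 6 oligodendrocyte precursor and all 8 astrocyte markers were lower. The neurons differed in kind too. Of 7 inhibitory markers 6 were higher and 1 was lower (sums of 3797 to 4284 in GFP+ and 487 to 2199 in GFP- libraries). Of 6 excitatory markers 4 were lower and 1 was higher (sums of 1101 to 1369 in GFP+ and 1159.5 to 2506 in GFP- libraries). The part of these differences in the members' values was not tested. In such bulk samples fewer cells of a type and less RNA per cell cannot be told apart. A trio of GFP- libraries stood apart by the lowest pan-neuronal scores. These were ES12 and ES8, at P21 and P80, with the highest oligodendrocyte sums (118578 and 107561), and ES16, at P21, with the highest endothelial and meningeal sums (5926 and 7617). Where the fold change over the ages of a called member moved by over 1.5 times without the 3, it is given both ways. Without the 3, ES14 is the only P21 GFP- library left. Values over the ages and at P21 then rest on that library for P21 GFP- nuclei. Their adjusted p-values and calls use a spread taken from the other groups. Library names are the column names of the deposited table, which do not number the animals.

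Most members differed between the populations. Averaged over the 3 ages, 44 of 56 members passed an adjusted p of 0.05 in limma, 33 higher and 11 lower in GFP+ nuclei, where 48.2% of all genes were called, 22.6% higher and 25.5% lower. The median log2 fold change, on the log2(value + 1) scale used for all fold changes, was 0.42 over the members and -0.02 over all genes. By family the medians were 0.59 for the Cdh genes, 0.42 for the clustered and 0.08 for the non-clustered protocadherins. The Cdh genes divided into 11 higher and 7 lower, the clustered protocadherins into 17 higher and 0 lower, and the non-clustered ones into 5 higher and 4 lower. Cdh15 reached 10 only in GFP+ libraries and Pcdh12 only in GFP- libraries, so that they entered through the population where they are high, and the other 54 gave 32 higher and 10 lower. Cdh1, among those 10, also met the filter only through GFP- libraries, with 9 at 10 or more against 1 GFP+ library. Without ES8, ES12 and ES16, which leaves ES14 as the only P21 GFP- library, the medians were 0.22, 0.22 and -0.09 for the 3 families.

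**Figure D1:**
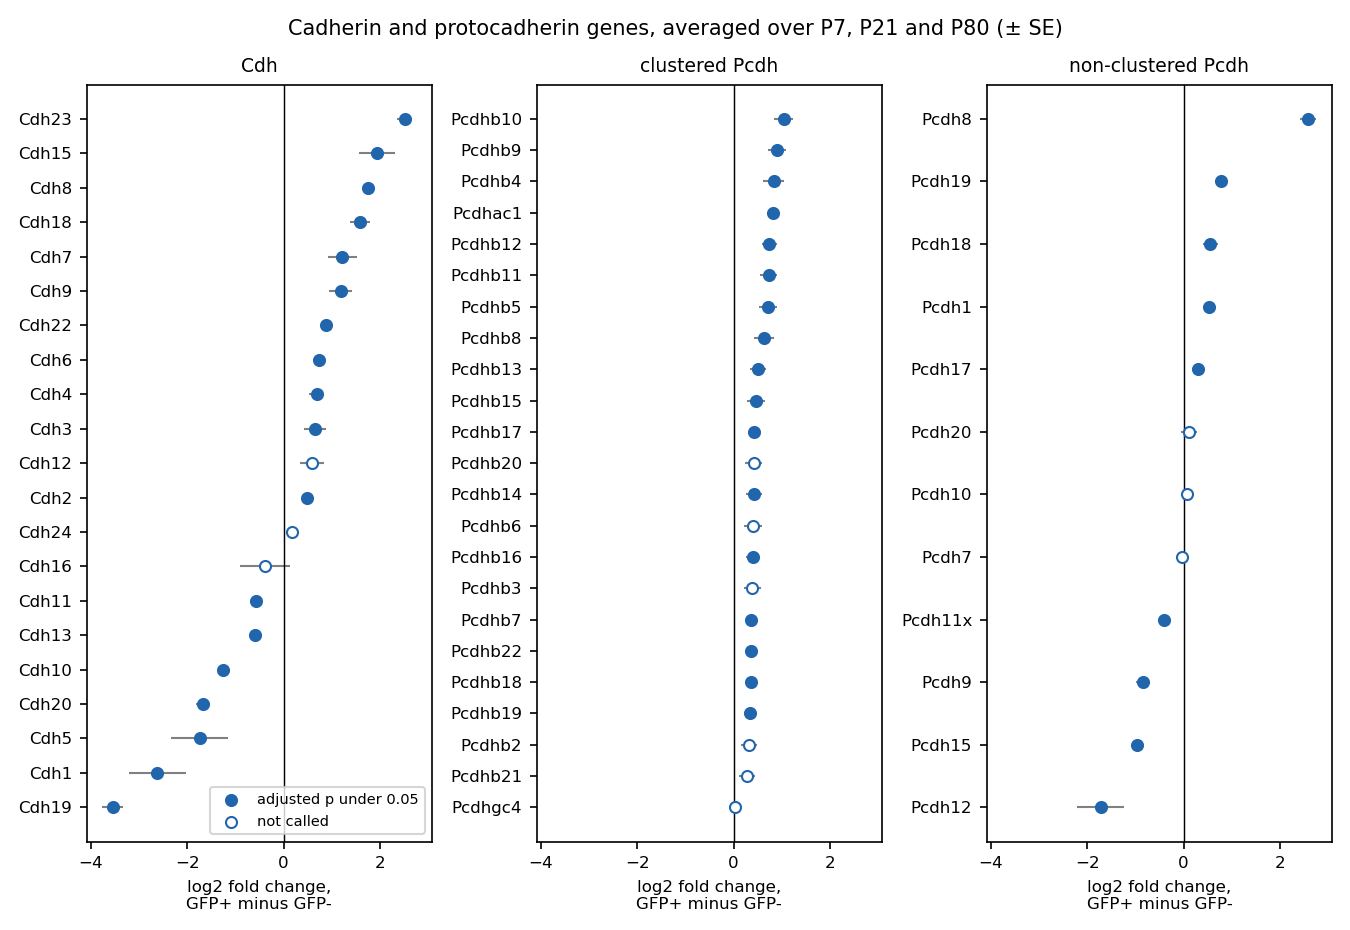
Log2 fold change of each of the 56 members between GFP+ and GFP- nuclei, averaged over P7, P21 and P80, in 3 panels for Cdh genes, clustered and non-clustered protocadherins. Bars are standard errors and filled points passed an adjusted p of 0.05. Cdh genes spread from -3.54 to 2.51, whereas all 23 clustered protocadherins lie between 0.026 and 1.04.

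At single ages 14 members were called at P7 (8 higher and 6 lower), 26 at P21 (19 and 7) and 25 at P80 (17 and 8). Over all genes 17.2% were called at P7 (7.06% higher and 10.1% lower), 32.9% at P21 (14.7% and 18.3%) and 28% at P80 (12.6% and 15.4%). Median log2 fold changes of the members were 0.24, 0.53 and 0.47 at the 3 ages in order, where those of all genes were 0.01, -0.067 and 0.0083. Clustered protocadherins made up 1 of the calls at P7 (Pcdhb6), 5 at P21 (Pcdhac1, Pcdhb5, Pcdhb10, Pcdhb11 and Pcdhb12) and 5 at P80 (Pcdhac1, Pcdhb5, Pcdhb9, Pcdhb10 and Pcdhb12). Several of these calls were lost under alternatives, at P21 Pcdhb5 under 18 and Pcdhb11 and Pcdhb12 under 6 each, at P80 Pcdhb10 under 8, Pcdhb9 under 4 and Pcdhb5 under 2, and at P7 Pcdhb6 under 3. The P7 and P21 counts include Cdh15, and the P21 and P80 counts include Cdh1.

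The P7 and P21 counts moved with the libraries in the fit. Within the libraries of 1 age alone they were 19 higher and 12 lower at P7 and 10 higher and 3 lower at P21. Without ES8, ES12 and ES16 the members' median at P21 was 0.22, with ES14 the only GFP- library of that age. In 9 members every GFP+ library exceeded every GFP- library of its age at all 3 ages (Cdh2, Cdh8, Cdh18, Cdh22, Cdh23, Pcdh8, Pcdh19, Pcdhac1 and Pcdhb9), as did 6.62% of all genes. In 4 members every GFP+ library was below (Cdh10, Cdh11, Cdh19 and Cdh20), as in 8.38% of all genes.

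The 13 type II cadherins split into 6 higher (Cdh8, Cdh18, Cdh7, Cdh9, Cdh22 and Cdh6) and 5 lower (Cdh19, Cdh5, Cdh20, Cdh10 and Cdh11) in GFP+ nuclei. Cdh8, which in mice is known from dorsal horn neurons and their input from cold-sensing sensory neurons, had normalized counts of 2592 to 4628 in GFP+ libraries (median 2979), against 558 to 1405 in GFP- libraries (median 1031). At P7 its values were 4628, 2979, 3917 and 3396 in P7 GFP+ libraries against 1405, 881, 1218 and 1049 in P7 GFP- libraries, at P21 3099, 2613 and 2904 in P21 GFP+ libraries against 558, 1031 and 602 in P21 GFP- libraries, and at P80 2998, 2806, 2808 and 2592 in P80 GFP+ libraries against 1209, 1044, 968 and 698 in P80 GFP- libraries. The 2 populations did not overlap at any age, and the log2 fold change was 1.76 ± 0.11 (SE), adjusted p = 7.26e-11. Cdh18, a cadherin of central nervous system neurons, had 449.9 to 773 in GFP+ libraries (median 659), against 85.2 to 393 in GFP- libraries (median 239). Its GFP+ libraries were all higher, and the log2 fold change was 1.59 ± 0.20 (SE), adjusted p = 1.25e-06.

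The promoters of 3 members far higher and 2 members lower in GFP+ nuclei are shown as examples of either direction. Cdh19 is not in the promoter table. They are the 250 bases before each gene's start in RefSeq (GRCm38.p6), on the gene's strand, with matches to CANNTG in capitals. CANNTG is the E-box, to which basic helix-loop-helix factors bind, a family that includes Ptf1a, needed for inhibitory dorsal horn neurons. Cdh8 is at chr8:99416472-99416721 on the minus strand, Cdh23 at chr10:60696491-60696740 on the minus strand, Pcdh8 at chr14:79771313-79771562 on the minus strand, Cdh10 at chr15:18820079-18820328 on the plus strand and Cdh20 at chr1:104768270-104768519 on the plus strand.
Cdh8: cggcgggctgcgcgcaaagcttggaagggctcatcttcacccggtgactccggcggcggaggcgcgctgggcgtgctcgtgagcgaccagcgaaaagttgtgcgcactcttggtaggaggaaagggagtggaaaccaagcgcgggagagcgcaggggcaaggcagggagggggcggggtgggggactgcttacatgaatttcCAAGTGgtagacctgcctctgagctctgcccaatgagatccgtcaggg
Cdh23: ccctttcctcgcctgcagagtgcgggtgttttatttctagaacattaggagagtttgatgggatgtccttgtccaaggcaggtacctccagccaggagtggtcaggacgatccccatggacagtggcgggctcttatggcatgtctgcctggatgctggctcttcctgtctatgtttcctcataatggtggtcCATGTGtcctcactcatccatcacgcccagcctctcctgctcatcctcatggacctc
Pcdh8: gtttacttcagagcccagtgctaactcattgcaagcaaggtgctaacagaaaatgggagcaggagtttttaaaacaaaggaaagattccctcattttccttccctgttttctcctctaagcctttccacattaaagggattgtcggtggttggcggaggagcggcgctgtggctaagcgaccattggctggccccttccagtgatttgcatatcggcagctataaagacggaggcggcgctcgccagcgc
Cdh10: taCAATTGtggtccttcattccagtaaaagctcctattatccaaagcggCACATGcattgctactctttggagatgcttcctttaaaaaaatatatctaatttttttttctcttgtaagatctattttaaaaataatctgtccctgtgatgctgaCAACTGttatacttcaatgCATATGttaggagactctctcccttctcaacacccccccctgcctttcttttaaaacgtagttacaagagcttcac
Cdh20: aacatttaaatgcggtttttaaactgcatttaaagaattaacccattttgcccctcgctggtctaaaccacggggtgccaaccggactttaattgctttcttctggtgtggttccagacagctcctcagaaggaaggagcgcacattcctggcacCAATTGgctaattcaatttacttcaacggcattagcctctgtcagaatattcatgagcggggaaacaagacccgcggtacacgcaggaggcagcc
The motif reads the same on both strands. It occurred 1 time before Cdh8, Cdh23 and Cdh20, 0 times before Pcdh8 and 4 times before Cdh10, and 66.2% of all 32851 RefSeq promoters held it, beside 54.2% of 24 promoters of 21 members that were searched. CpG dinucleotides numbered 20 before Cdh8, 5 before Cdh23, 11 before Pcdh8, 2 before Cdh10 and 10 before Cdh20, against a median of 6 over all promoters and 10.5 over those 24.

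The other type II members with higher values were less far apart. Cdh7 had 360.3 to 504 in GFP+ libraries (median 395), against 29.7 to 366 in GFP- libraries (median 250.4), with a log2 fold change of 1.22 ± 0.30 (SE), adjusted p = 0.00192. Cdh9, which takes part in specific synapses of the mouse hippocampus, had group means of 76.3, 64.4 and 73.6 in GFP+ nuclei and 49.5, 22.2 and 34.5 in GFP- nuclei at P7, P21 and P80, with a log2 fold change of 1.19 ± 0.24 (SE), adjusted p = 2.93e-04. Both genes were lowest in ES12. Without ES8, ES12 and ES16 the log2 fold changes were 0.62 (adjusted p = 3.37e-05) for Cdh7 and 0.76 (adjusted p = 7.81e-04) for Cdh9. Group means of Cdh22 were 199, 192 and 201 in GFP+ nuclei and 112, 96.3 and 114 in GFP- nuclei at P7, P21 and P80, and its log2 fold change was 0.88 ± 0.12 (SE), adjusted p = 1.53e-06. Those of Cdh6, known as K-cadherin, were 260.3, 199 and 228 in GFP+ nuclei and 176, 90.7 and 171 in GFP- nuclei at P7, P21 and P80, with a log2 fold change of 0.74 ± 0.12 (SE), adjusted p = 1.84e-05. Cdh12 had a log2 fold change of 0.59 ± 0.24 (SE), adjusted p = 0.0517 and Cdh24 of 0.17 ± 0.12 (SE), adjusted p = 0.254, and neither was called.

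Among the lower type II members, Cdh19, a cadherin of Schwann cell precursors and other glia, was furthest apart. Its normalized counts were 17.0, 27.2, 34.3 and 23.4 in P7 GFP+ libraries against 110.0, 122, 149.8 and 88.8 in P7 GFP- libraries. They were 48.8, 48.2 and 26.1 in P21 GFP+ libraries against 743, 402 and 254 in P21 GFP- libraries, and 11.4, 11.8, 18.6 and 10.4 in P80 GFP+ libraries against 315, 604, 269.7 and 846 in P80 GFP- libraries. No GFP+ library reached the lowest GFP- library of its age, and the log2 fold change was -3.54 ± 0.21 (SE), adjusted p = 2.59e-11. Cdh20, a type II cadherin of the developing nervous system, had 75.0 to 192 in GFP+ libraries (median 159), against 212 to 653 in GFP- libraries (median 383), with a log2 fold change of -1.66 ± 0.15 (SE), adjusted p = 5.81e-09. Cdh10, a cadherin of neurons and of brain vessels, had 371 to 560.1 in GFP+ libraries (median 408), against 640.5 to 1912 in GFP- libraries (median 979). Its highest library was ES12 at P21, every GFP+ library was below every GFP- library, and the log2 fold change was -1.26 ± 0.12 (SE), adjusted p = 2.71e-08. Cdh11, a cadherin first known from bone-forming and mesenchymal cells, had 308 to 448 in GFP+ libraries (median 369), against 417 to 677 in GFP- libraries (median 546) and a log2 fold change of -0.58 ± 0.072 (SE), adjusted p = 8.52e-07.

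Glial markers were lower in GFP+ nuclei too. Summed oligodendrocyte markers were 2160.1 to 11048 in GFP+ libraries and 28338 to 118578 in GFP- libraries, with 10 of 10 markers lower in GFP+ nuclei. Oligodendrocyte precursor markers summed to 78.2 to 989 in GFP+ and 1293 to 7588 in GFP- libraries (6 of 6 lower), and Schwann cell markers to 46.1 to 237 in GFP+ and 103 to 2548 in GFP- libraries (4 of 4 lower). No marker of these lists was at 0 in every library of a group. Their part in the differences of Cdh19, Cdh20, Cdh10 and Cdh11 was not tested. With ES8, ES12 and ES16 left out the 4 log2 fold changes were -3.42, -1.56, -1.31 and -0.49, all called.

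**Figure D2:**
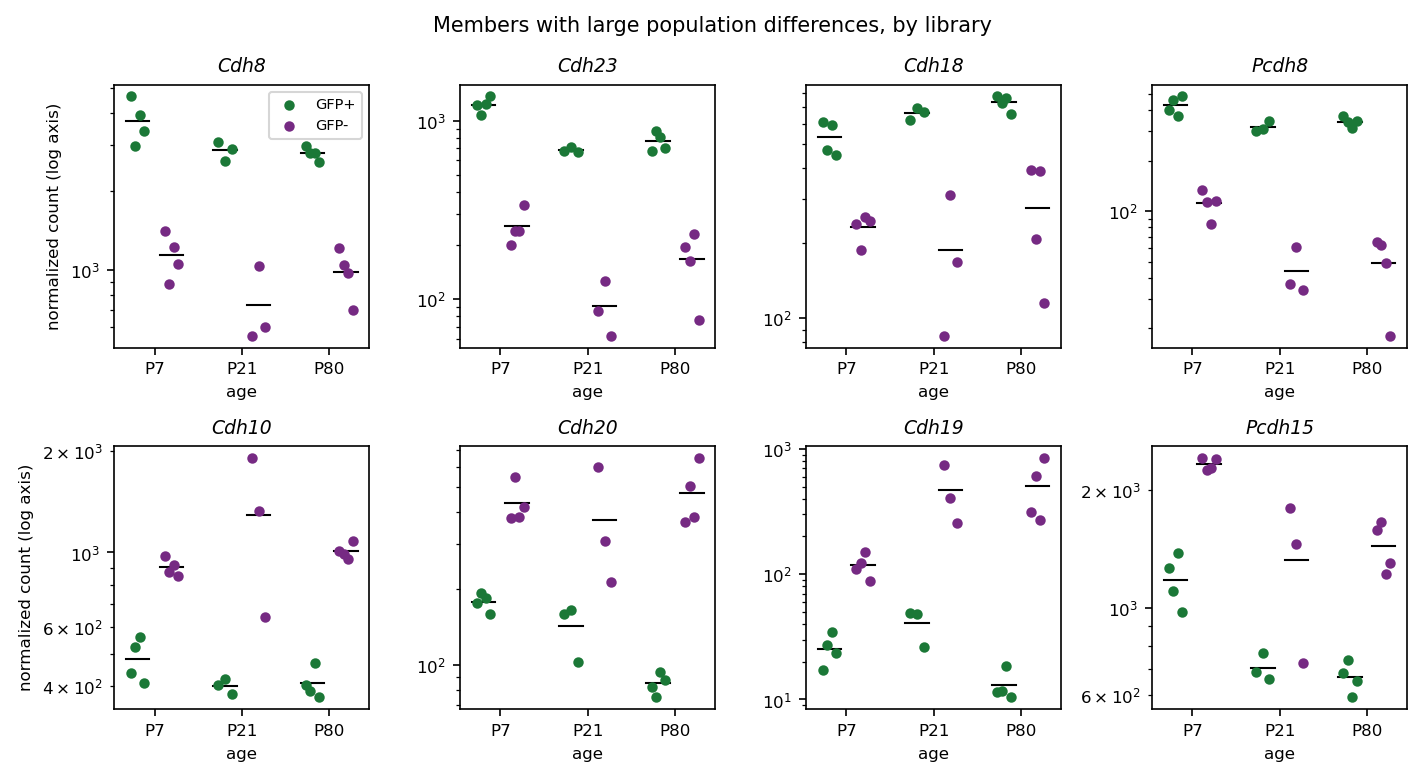
Normalized counts, on log axes, of 8 members in each library by age, GFP+ (green) left of GFP- (purple), with a line at each group mean. Cdh8, Cdh23, Cdh18 and Pcdh8 are higher in every GFP+ library of an age than in its GFP- libraries, and Cdh10, Cdh20 and Cdh19 lower, while for Pcdh15 1 of the P21 GFP- libraries, at 726, lies among the P21 GFP+ values of 661 to 767.

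Members of opposite direction were direct neighbours on the chromosomes. On chromosome 15 the type II genes Cdh6, Cdh9, Cdh10, Cdh12 and Cdh18 follow each other with 0 coding genes between them in GENCODE M21, and their log2 fold changes in that order were 0.74, 1.19, -1.26, 0.59 and 1.59. Cdh10 was thus lower in GFP+ nuclei between 2 genes on each side with positive values, of which Cdh12 was not called. On chromosome 1 Cdh7 (1.22) adjoins Cdh19 (-3.54). On chromosome 8 Cdh8 (1.76), Cdh11 (-0.58) and Cdh5 (-1.74) stand in a row.

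Of the 5 type I cadherins, Cdh2, Cdh3 and Cdh4 were higher in GFP+ nuclei, beside Cdh1 and Cdh15, which are described apart. Cdh2, the N-cadherin of neurons and many other cells, had 1152 to 1597 in GFP+ libraries (median 1259), against 532 to 1147 in GFP- libraries (median 966). Its values did not overlap between the populations within any age, and its log2 fold change was 0.49 ± 0.093 (SE), adjusted p = 1.60e-04. Group means of Cdh4, the R-cadherin of retina and brain, were 256, 216 and 221 in GFP+ nuclei and 221, 103 and 148 in GFP- nuclei at P7, P21 and P80, with a log2 fold change of 0.69 ± 0.15 (SE), adjusted p = 8.34e-04. The populations overlapped at P80, where ES2 had 225, and not at P7 and P21. The 3 lowest values were those of ES12, ES8 and ES16, and without these libraries the log2 fold change of Cdh4 was 0.34 (adjusted p = 0.00437). Cdh3, or P-cadherin, had group means of 79.6, 80.8 and 66.1 in GFP+ nuclei and 84.6, 35.6 and 46.1 in GFP- nuclei at P7, P21 and P80. The call of Cdh3, with a log2 fold change of 0.65 ± 0.23 (SE), adjusted p = 0.0226, rested on ES12, whose value of 12.9 was the lowest of all libraries, and without ES12 it was 0.46 (adjusted p = 0.0622). With all 3 left out Cdh3 had 0.22 (adjusted p = 0.2).

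Cdh15, the M-cadherin of muscle precursors and cerebellar granule cells, was near the floor. Its libraries held 141 reads in all in GFP+ nuclei and 39 in GFP- nuclei, and normalized counts were 4.97 to 19.3 in GFP+ libraries (median 12.5), against 0 to 8.32 in GFP- libraries (median 1.97). All 9 libraries at 10 or more were GFP+. Its log2 fold change of 1.94 is therefore given as a description, on the log2(value + 1) scale, which understates changes at such levels.

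Cdh1, the E-cadherin of epithelia, and Cdh5, the VE-cadherin of endothelial junctions, were low in most libraries and high in ES16. Cdh1 reached 10 in 9 GFP- libraries and 1 GFP+ library, so that it passed the abundance filter only through GFP- libraries, where it is high. At P7 Cdh1 had 4.54, 0.823, 3.68 and 4.69 in P7 GFP+ libraries against 25.0, 4.03, 31.5 and 10.4 in P7 GFP- libraries. At P21 it had 18.2, 8.76 and 4.01 in P21 GFP+ libraries against 8.92, 44.3 and 1112 in P21 GFP- libraries, and at P80 2.08, 5.35, 4.97 and 2.61 in P80 GFP+ libraries against 19.6, 50.3, 15.0 and 90.4 in P80 GFP- libraries. Over all ages its log2 fold change of -2.62 ± 0.59 (SE), or -1.98 without ES16, is therefore a description. The P21 difference of Cdh1, -3.02 ± 1.13 (SE), became -1.11 without ES16 and was then not called (limma adjusted p = 0.353). Cdh5 had 69.2, 43.8 and 19.0 in P21 GFP+ libraries against 75.3, 72.1 and 2074 in P21 GFP- libraries. Its log2 fold change of -1.74 ± 0.60 (SE), adjusted p = 0.0219, was not called without ES16, at -1.21 (adjusted p = 0.0559), or without ES8, at -1.59 (adjusted p = 0.0515), and with all 3 left out Cdh5 had -1.04 (adjusted p = 0.2).

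ES16 was also the highest library for epithelial genes. Krt8 was at 0 to 10.2 in GFP+ libraries, and at 327 in ES16 and at most 17.2 in the other GFP- libraries. Krt18 was at 0 to 21.6 in GFP+ libraries, and at 377 in ES16 and at most 19.0 in the other GFP- libraries, and Epcam at 0 to 8.59 in GFP+ libraries, and at 213 in ES16 and at most 15.4 in the other GFP- libraries. These 3 genes were chosen after their values were seen. Summed endothelial and mural markers were 137 to 364 in GFP+ libraries and 434 to 5926 in GFP- libraries, where 7 of 8 markers were lower in GFP+ nuclei. Pcdh12, an endothelial protocadherin once named VE-cadherin-2, was also highest in ES16, with 9.08, 0 and 5.01 in P21 GFP+ libraries against 4.95, 7.59 and 111 in P21 GFP- libraries. At P7 its values were 1.14, 6.59, 2.45 and 3.91 in P7 GFP+ libraries against 16.6, 15.3, 18.7 and 17.0 in P7 GFP- libraries, without overlap. Since all 7 libraries at 10 or more were GFP-, its log2 fold change of -1.72, or -1.28 without ES16, is a description. The part of other cell types in the 3 genes was not tested.

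**Figure D3:**
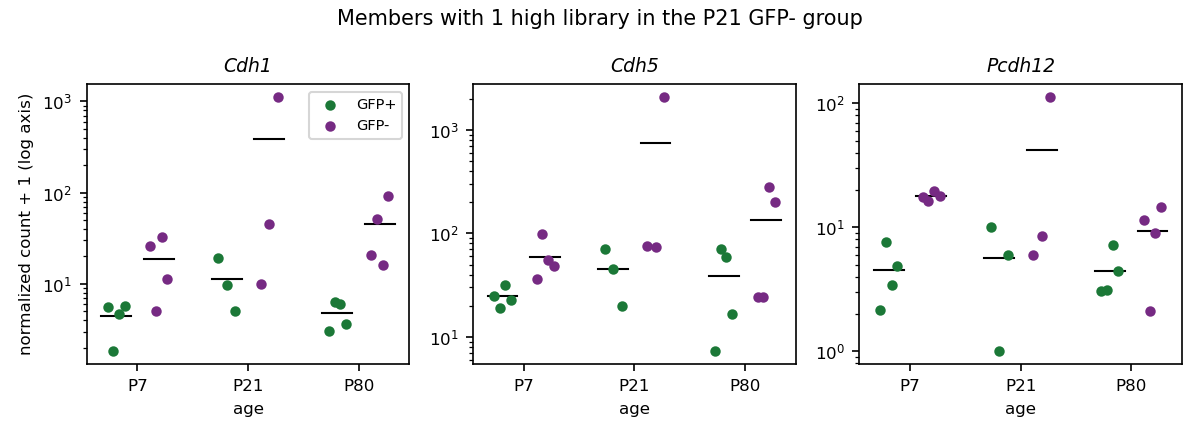
Normalized counts plus 1, on log axes, of Cdh1, Cdh5 and Pcdh12 in each library by age, GFP+ (green) left of GFP- (purple), with a line at each group mean. In the P21 GFP- group 1 library, ES16, lies far above the other 2, at 1112 for Cdh1, 2074 for Cdh5 and 111 for Pcdh12 before 1 is added.

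Among the other Cdh genes, Cdh23, which with Pcdh15 forms the tip link that opens channels in inner ear hair cells, was far higher in GFP+ nuclei. At P7 it had 1234, 1086, 1247 and 1371 in P7 GFP+ libraries against 201, 241, 241 and 339 in P7 GFP- libraries. At P21 the values were 674, 716 and 669 in P21 GFP+ libraries against 85.2, 126 and 62.4 in P21 GFP- libraries, and at P80 678, 881, 813 and 705 in P80 GFP+ libraries against 197, 164, 233 and 76.0 in P80 GFP- libraries. The lowest GFP+ value of all ages, 669, exceeded the highest GFP- value, 339, and the log2 fold change was 2.51 ± 0.15 (SE), adjusted p = 3.83e-11. Its tip link partner Pcdh15 had a value of the other sign, -0.97. Cdh13, or T-cadherin, which is held by a lipid anchor and lacks the cytoplasmic domain, had 245 to 556 in GFP+ libraries (median 344), against 295 to 888 in GFP- libraries (median 517). The log2 fold change was -0.59 ± 0.10 (SE), adjusted p = 6.04e-05, and the populations overlapped at P80, through ES8 with 295. Cdh16, a kidney cadherin, had 57 reads in all GFP+ and 64 in all GFP- libraries and was not called (-0.38, adjusted p = 0.579).

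All 23 clustered protocadherins had a positive log2 fold change and 17 were called higher, 16 of them beta genes. With edgeR 14 were called higher, with DESeq2 15 and with quantile normalization 21. The calls of Pcdhb15, Pcdhb14 and Pcdhb19 were lost under 19, 18 and 13 alternatives. The beta genes lie in a row on chromosome 18. They are encoded by 1 exon each and lack the constant tail that alpha and gamma isoforms share. Every library had reads of all 21 beta genes. Their summed normalized count was 1937 to 2649 in GFP+ libraries (median 2280), against 1025 to 2473 in GFP- libraries (median 1743). The P21 populations did not overlap. At P7 and P80 all but 1 GFP- library lay below the GFP+ libraries of their age, the exceptions being ES18 with 2242 and ES2, above all P80 GFP+ libraries with 2473. The lowest sum was that of ES8. The range of single beta genes was narrow, from 0.27 for Pcdhb21 to 1.04 for Pcdhb10.

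Pcdhb10 had 42.3 to 91.9 in GFP+ libraries (median 74.2), against 9.95 to 68.4 in GFP- libraries (median 39.5), with a log2 fold change of 1.04 ± 0.20 (SE), adjusted p = 1.49e-04. Group means of Pcdhb9 were 97.4, 90.1 and 93.8 in GFP+ nuclei and 54.1, 49.7 and 53.1 in GFP- nuclei at P7, P21 and P80, with a log2 fold change of 0.90 ± 0.19 (SE), adjusted p = 4.97e-04. At the other end Pcdhb21, with means of 153, 127 and 129.9 in GFP+ nuclei and 134, 106 and 115 in GFP- nuclei at P7, P21 and P80, had a log2 fold change of 0.27 ± 0.17 (SE), adjusted p = 0.193, and was not called. Pcdhb2, with means of 24.2, 21.0 and 34.0 in GFP+ nuclei and 20.3, 18.1 and 23.9 in GFP- nuclei at P7, P21 and P80, was not called either, at 0.32 ± 0.17 (SE), adjusted p = 0.122. The genes from Pcdhb2 to Pcdhb12 had a median of 0.72 and 8 of 11 called, and those from Pcdhb13 to Pcdhb22, the far end of the array, a median of 0.41 and 8 of 10 called. Over the 21 genes Spearman's rho between gene number and fold change was -0.33, between -0.28 (pseudocount 5) and -0.47 (edgeR) with other settings, and -0.70 without ES8, ES12 and ES16. Gene number also went with the mean log2 value (rho 0.85), which is not per length. This is a description, since the genes share libraries and may share reads. Without the 3 libraries, where ES14 is the only P21 GFP- library, Pcdhb4 had 0.55 in place of 0.83, and Pcdhb11 0.39 in place of 0.72. The 8 called genes from Pcdhb13 on (Pcdhb13 to Pcdhb19 and Pcdhb22) had 0.35 to 0.51 with all libraries and 0.066 (Pcdhb18) to 0.22 (Pcdhb16) without the 3.

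The alpha and gamma arrays enter as 1 row each. The row named Pcdhac1 carries an identifier that GENCODE M21 gives to Pcdha11 and overlaps exons of most other alpha isoforms, and the row named Pcdhgc4 overlaps exons of the gamma isoforms. Whether their reads come from 1 isoform or from the whole array could not be told from the files. Pcdhac1 had 1359 to 1938 in GFP+ libraries (median 1816), against 616 to 1401 in GFP- libraries (median 1135), without overlap at any age, and a log2 fold change of 0.82 ± 0.13 (SE), adjusted p = 1.56e-05. With ES8, ES12 and ES16 left out it was 0.54 (adjusted p = 6.69e-07). Pcdhgc4 had 1968 to 2715 in GFP+ libraries (median 2237), against 2020.5 to 2584 in GFP- libraries (median 2197), and its log2 fold change of 0.026 ± 0.049 (SE) was not called (adjusted p = 0.691).

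**Figure D4:**
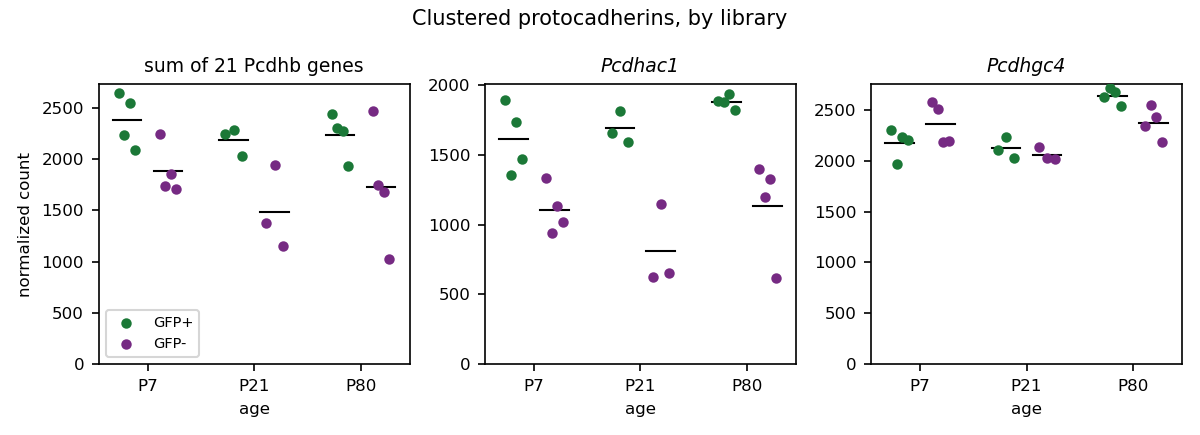
Normalized counts in each library by age, GFP+ (green) left of GFP- (purple), with a line at each group mean, for the sum of 21 beta protocadherins and for the rows Pcdhac1 and Pcdhgc4. The beta sum and Pcdhac1 lie lowest in GFP- libraries, at 1025 and 616, whereas Pcdhgc4 stays between 1968 and 2715 in both populations.

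Of the 5 delta-2 protocadherins, several of which bind the WAVE complex that drives actin branching, 4 were higher in GFP+ nuclei. Pcdh8, or arcadlin, which neuronal activity induces and which draws N-cadherin from synapses, had the highest positive log2 fold change of all members. Its values were 403, 460.1, 370.2 and 483 in P7 GFP+ libraries against 134, 113, 83.8 and 114 in P7 GFP- libraries. They were 299, 307 and 343 in P21 GFP+ libraries against 36.7, 60.7 and 33.9 in P21 GFP- libraries, and 369.8, 338, 313 and 346 in P80 GFP+ libraries against 65.3, 62.6, 49.1 and 18.1 in P80 GFP- libraries. The lowest GFP+ value, 299, was above the highest GFP- value, 134, and the log2 fold change was 2.58 ± 0.17 (SE), adjusted p = 7.65e-11. Pcdh19, mutated in an epilepsy of girls, had 641 to 753 in GFP+ libraries (median 704), against 199.9 to 582 in GFP- libraries (median 470.4) and a log2 fold change of 0.78 ± 0.12 (SE), adjusted p = 1.04e-05. Pcdh18, with 0.55 ± 0.16 (SE), adjusted p = 0.00524, and Pcdh17, with 0.31 ± 0.091 (SE), adjusted p = 0.00761, were called too, Pcdh17 also without the 3 libraries, at 0.16 (adjusted p = 0.0307). Pcdh10 had group means of 1084, 945 and 842 in GFP+ nuclei and 1277, 811 and 760.3 in GFP- nuclei at P7, P21 and P80 and was not called, at 0.06 ± 0.083 (SE), adjusted p = 0.584.

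Among the 4 delta-1 protocadherins, whose tails bind protein phosphatase 1, Pcdh1 was higher and Pcdh9 and Pcdh11x were lower. Pcdh1 had 912 to 1086 in GFP+ libraries (median 939.7), against 508 to 923 in GFP- libraries (median 656), with a log2 fold change of 0.53 ± 0.08 (SE), adjusted p = 9.38e-06. Pcdh9 had 1467 to 2206 in GFP+ libraries (median 1752), against 1932 to 6278 in GFP- libraries (median 2978), and its highest library was ES12. Its log2 fold change was -0.84 ± 0.14 (SE), adjusted p = 4.33e-05, and -0.88 (adjusted p = 8.97e-09) without ES8, ES12 and ES16. Pcdh11x had 397 to 735 in GFP+ libraries (median 461), against 333 to 1125 in GFP- libraries (median 719) with overlapping ranges, and its log2 fold change was -0.40 ± 0.13 (SE), adjusted p = 0.0137. It was -0.65 (adjusted p = 1.10e-07) with ES8, ES12 and ES16 left out. Group means of Pcdh7, also known as NF-protocadherin in frogs, were 1636, 1498 and 1587 in GFP+ nuclei and 2074, 1415 and 1489 in GFP- nuclei at P7, P21 and P80, and it was not called, at -0.027 ± 0.12 (SE), adjusted p = 0.868. Pcdh7 was called lower without ES8, ES12 and ES16, at -0.24 (adjusted p = 0.0146).

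The remaining non-clustered genes were Pcdh15, Pcdh20 and Pcdh12. Pcdh15 had 593 to 1381 in GFP+ libraries (median 739), against 726 to 2419 in GFP- libraries (median 1664). At P7 and P80 the populations did not overlap, and the log2 fold change was -0.97 ± 0.11 (SE), adjusted p = 3.42e-07. Oligodendrocyte precursor markers, given above, were lower in the same libraries, and their part in the difference of Pcdh15 was not tested. Pcdh20 had group means of 59.4, 78.8 and 82.0 in GFP+ nuclei and 75.1, 70.7 and 61.1 in GFP- nuclei at P7, P21 and P80 and was not called, at 0.11 ± 0.17 (SE), adjusted p = 0.633.

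Since pan-neuronal markers differed between the samples, the population contrast was also taken relative to the mean log2 value of 14 pan-neuronal genes in each library. On that scale the median of all genes was -0.81, 3.34% of all genes were higher and 75.5% lower in GFP+ nuclei. Of the members 5 were higher and 28 lower, with a median of -0.37 over the 56. Pcdh8 had 1.79 ± 0.13 (SE), adjusted p = 1.14e-10, and Cdh23 1.72 ± 0.11 (SE), adjusted p = 3.19e-11. Cdh8 had 0.97 ± 0.11 (SE), adjusted p = 5.64e-08, and Cdh18 0.80 ± 0.13 (SE), adjusted p = 1.28e-05. These 4 were called under every alternative. The fifth, Cdh15, at 1.15, reached 10 only in GFP+ libraries and was not called with a pseudocount of 5. Among the 23 clustered protocadherins 11 were lower relative to neuronal genes and the other 12 not called, with a median of -0.37.

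Between P80 and P7 in GFP+ nuclei 6 of 56 members were called, 1 higher and 5 lower, a share of 10.7% near the 9.39% of all genes (3.48% higher and 5.91% lower), and the members' median log2 fold change was -0.17, against -0.03 over all genes. Without ES8, ES12 and ES16, which are not GFP+ libraries but enter the shared estimate of spread, 2 were higher and 11 lower, where 20.8% of all genes were called. Cdh24, a type II cadherin, had the largest of the 6 changes. It had 56.1, 57.8, 39.8 and 54.0 in P80 GFP+ libraries, against 184, 198, 206 and 224 in P7 GFP+ libraries. The ranges did not overlap, the log2 fold change was -1.96 ± 0.20 (SE), adjusted p = 1.49e-06, and at P21 the 3 values were 60.2, 72.3 and 94.2, a log2 fold change against P7 of -1.44 ± 0.22 (SE), adjusted p = 8.00e-04. GFP- nuclei showed a change of -1.88 ± 0.20 (SE), adjusted p = 1.75e-06 between P80 and P7, and the difference between the populations in this change was -0.082 ± 0.28 (SE), adjusted p = 0.976.

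Cdh20 had 82.1, 75.0, 94.5 and 87.9 in P80 GFP+ libraries, against 176, 192, 184 and 159 in P7 GFP+ libraries, a log2 fold change of -1.06 ± 0.24 (SE), adjusted p = 0.00646. In GFP- nuclei it was 0.11 ± 0.24 (SE), adjusted p = 0.804. The test of the difference between the populations gave -1.17 ± 0.34 (SE), adjusted p = 0.0799, and -1.01 (adjusted p = 0.00441) without ES8, ES12 and ES16. Pcdh15 fell by 0.82 on the log2 scale in GFP+ nuclei (adjusted p = 0.00653), with 593 to 739 at P80 against 979 to 1381 at P7, and Cdh13 by 0.72 (adjusted p = 0.00787), with 245 to 349 at P80 against 443 to 556 at P7. Cdh11 had 337, 308, 323 and 345 at P80 against 403, 448, 435 and 426 at P7, and its log2 fold change of -0.38 ± 0.12 (SE), adjusted p = 0.0449, was not called under 17 of the alternatives.

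Pcdhgc4 was the 1 member higher at P80. It had 2628, 2715, 2680.4 and 2542 in P80 GFP+ libraries, against 2303, 1968, 2237 and 2202 in P7 GFP+ libraries, a log2 fold change of 0.28 ± 0.081 (SE), adjusted p = 0.0301, that was not called under 7 of the alternatives, quantile normalization among them. No beta protocadherin was called. The largest beta values were 0.47 for Pcdhb2 and 0.25 for Pcdhb15, and the smallest -0.51 for Pcdhb10 and -0.47 for Pcdhb11. Cdh18 and Cdh12 had the largest positive Cdh values, at 0.47 ± 0.33 (SE), adjusted p = 0.434 and 0.46 ± 0.40 (SE), adjusted p = 0.553, and were not called. Oligodendrocyte markers summed to 2160.1 to 3008 in P80 and 8093 to 10716 in P7 GFP+ libraries, and oligodendrocyte precursor markers to 78.2 to 129 in P80 and 797 to 989 in P7 GFP+ libraries. Their part in the lower values at P80 was not tested.

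Between P21 and P7 only Cdh24 and Cdh13 were called in GFP+ nuclei, both lower, against 2.33% of all genes (0.865% higher and 1.46% lower). The call of Cdh13 was lost under 14 alternatives. Between P80 and P21 limma called 0 members, against 0.242% of all genes. At an unadjusted p under 0.05 there were 6, where 5.4% of all genes passed (Cdh16, Cdh19, Cdh20, Cdh24, Pcdhb2 and Pcdhgc4), edgeR called 0, and DESeq2 called 1 higher, Pcdhgc4, and 1 lower, Cdh19.

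Within GFP- nuclei 11 members were called between P80 and P7, 1 higher (Cdh19) and 10 lower, against 16.3% of all genes (7.56% higher and 8.77% lower). The members' median was -0.29, against -0.018 over all genes. The counts were 3 higher and 13 lower without ES8, ES12 and ES16, with a median of -0.06 and 24.8% of all genes called. All 5 delta-2 protocadherins were among the lower ones, with and without those libraries. Pcdh18 had 66.6, 48.1, 46.1 and 49.7 in P80 GFP- libraries, against 158, 116, 134 and 178 in P7 GFP- libraries, a log2 fold change of -1.46 ± 0.25 (SE), adjusted p = 3.76e-04. In GFP+ nuclei it had 148, 133, 157 and 143 at P80 against 162, 146, 137 and 172 at P7, a log2 fold change of -0.087 ± 0.25 (SE), adjusted p = 0.888. The other 4 changed in GFP- nuclei by -1.30 (Pcdh8), -0.78 (Pcdh17), -0.76 (Pcdh10) and -0.56 (Pcdh19), and in GFP+ nuclei had uncalled values of -0.32, -0.18, -0.36 and 0.10. The call of Pcdh19 in GFP- nuclei (adjusted p = 0.0496) was lost under 22 alternatives. Beside the delta-2 genes, Cdh24, Cdh13 (-0.86), Pcdh11x (-0.78), Pcdh15 (-0.71) and Pcdh1 (-0.42) were lower in P80 GFP- nuclei.

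**Figure D5:**
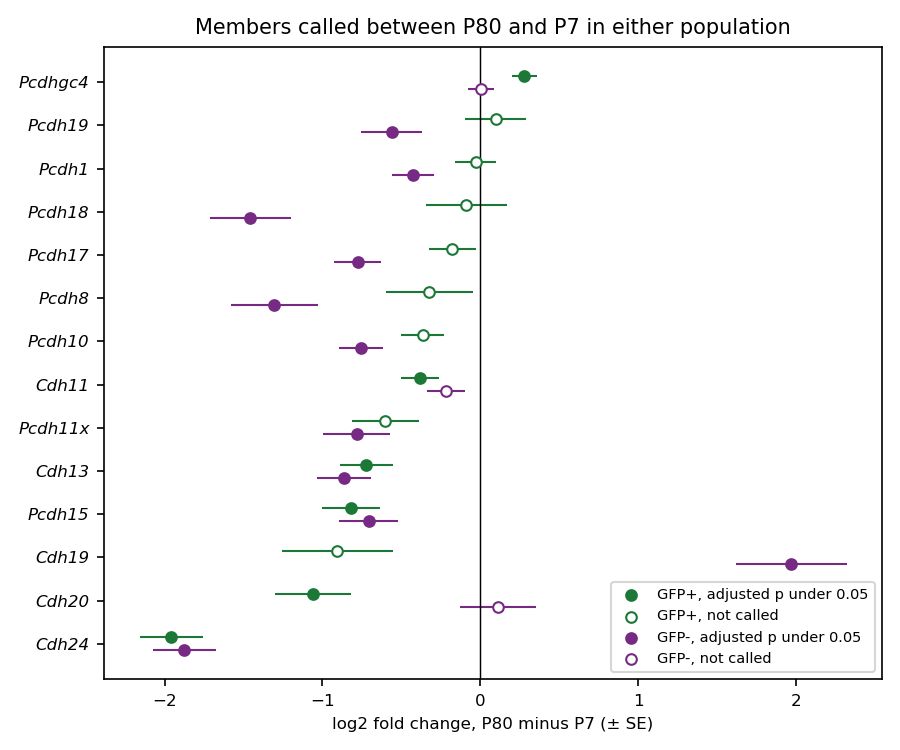
Log2 fold change, P80 minus P7, with standard errors, of the 14 members called in either population, GFP+ in green above GFP- in purple. Filled points passed an adjusted p of 0.05. Cdh24, Cdh13 and Pcdh15 lie left of 0 in both populations, and Cdh19 lies at -0.90 in GFP+ and 1.97 in GFP- nuclei.

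The test of the difference between the populations in this change called 2 members, Cdh19 and Pcdh18, against 2.07% of all genes (0.424% higher and 1.65% lower). For Pcdh18 it was 1.37 ± 0.36 (SE), adjusted p = 0.0497, and the call was lost under 21 alternatives. The other delta-2 genes had 0.98 (Pcdh8), 0.66 (Pcdh19), 0.60 (Pcdh17) and 0.39 (Pcdh10), none of them called. The Cdh19 populations lay further apart with age. Its population difference was -2.18 ± 0.35 (SE), adjusted p = 1.60e-04 at P7, -3.39 ± 0.40 (SE), adjusted p = 4.21e-06 at P21 and -5.06 ± 0.35 (SE), adjusted p = 1.19e-09 at P80, and the difference of differences between P80 and P7 was -2.88 ± 0.50 (SE), adjusted p = 0.00429. Cdh19 was also the 1 member called by the interaction test over the 3 ages (adjusted p = 0.0157), which called 0.951% of all genes. Summed Schwann cell markers were 68.4 to 85.7 in P80 GFP+ and 401 to 1635 in P80 GFP- libraries, and 46.1 to 237 in P7 GFP+ and 103 to 1959 in P7 GFP- libraries. Oligodendrocyte markers summed to 28338 to 107561 in P80 and 28927 to 42002 in P7 GFP- libraries. Other glial sums were lower at P80 in GFP- libraries, where Cdh19 was higher. Oligodendrocyte precursor markers summed to 1293 to 3976 in P80 and 4573 to 7588 in P7 GFP- libraries. Astrocyte markers summed to 6159 to 8328 in P80 and 10614 to 16311 in P7 GFP- libraries. Their part was not tested.

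Of 8 catenin genes, whose products tie classical cadherins to actin, 5 were lower in GFP+ nuclei (Ctnna3, Jup, Ctnna1, Pkp4 and Ctnnb1) and the other 3 were not called, where 25.5% of all genes were lower. Ctnna3, an alpha catenin, had 108 to 205 in GFP+ libraries against 224 to 867 in GFP- libraries and a log2 fold change of -1.83 ± 0.16 (SE), and Jup, or plakoglobin, had -1.62 ± 0.25 (SE). Beta-catenin (Ctnnb1) had -0.45 ± 0.18 (SE), with an adjusted p of 0.0421 in limma. Its median was 726 and its highest value 916 in GFP+ libraries, against 910 and 3477 in GFP- libraries. Ctnnd2, the delta-catenin of neurons, had 0.18 ± 0.085 (SE) and was not called. Ctnna1 had a median of 140.3 and at most 174 in GFP+ libraries, against a median of 315 and at most 2211 in GFP- libraries. Jup had a median of 51.0 and at most 88.3 in GFP+ libraries, against 136 and at most 769 in GFP- libraries. Calls of genes other than the members were not followed gene by gene under the alternatives. The glial and endothelial markers given above were lower in the same GFP+ libraries, and their part in the catenins' values was not tested. Of the 16 tested genes of the wider cadherin superfamily 9 were higher and 2 lower, where 22.6% and 25.5% of all genes were. Relative to pan-neuronal genes 5 were higher and 6 lower, where 3.34% and 75.5% of all genes were. Ret, a receptor kinase with cadherin-like repeats, had 500.1 to 818 in GFP+ libraries against 72.3 to 219 in GFP- libraries and a log2 fold change of 2.15 ± 0.13 (SE). Celsr1, a planar polarity cadherin, had 1.68 ± 0.24 (SE). The giant cadherin Fat1 was lower, at -1.24 ± 0.083 (SE). Fat2, also a giant cadherin and counted among the 2 lower, was near the floor. It had 0 to 4.97 in GFP+ libraries (median 1.74), against 0.904 to 17.0 in GFP- libraries (median 2.96). Fat2 thus passed the abundance filter only through GFP- libraries, where it is high. Its log2 fold change of -1.15 ± 0.41 (SE) is therefore a description.

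Among 11 tested regulators of clustered protocadherin choice 1 was higher and 4 were lower, where 22.6% and 25.5% of all genes were. Relative to pan-neuronal genes all 11 were lower, as were 75.5% of all genes. Their median on that scale was -0.92, against -0.81 over all genes. Ehmt2, a histone H3 lysine methyltransferase, had 0.27 ± 0.074 (SE), or -0.52 ± 0.14 (SE) relative to pan-neuronal genes, and Dnmt3b, which methylates clustered protocadherin promoters in mouse embryos, had -0.87 ± 0.22 (SE). Within GFP+ nuclei both were lower at P80 than at P7, with log2 fold changes of -1.69 ± 0.36 for Dnmt3b and -0.50 ± 0.12 for Ehmt2 (SE). The other 9 regulators were not called there, where 5.91% of all genes were lower. In GFP- nuclei Ehmt2 was lower at P80 too, at -0.60 ± 0.12 (SE), and Dnmt3b, at -0.45 ± 0.36 (SE), was not called. Among proteases that shed or cleave cadherins, Adam17 had -0.54 ± 0.088 and Ncstn, a subunit of gamma-secretase, -0.30 ± 0.10 (SE), both called lower in GFP+ nuclei.

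In the authors' deposited table of all ages 45 of the 56 members were called, 43 of them also here and all 43 in the same direction. Both come from the same libraries, so that the match is not independent support. Their across-age test of GFP+ nuclei, in the authors' deposited table, called 14 members, which included all 6 called here between P80 and P7. It too uses the same libraries, and it is a different test from the contrast of P80 and P7.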

How the data were processed

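Normalized expression values of 22 libraries were used as the authors deposited them. Per the file headers they are normalized expression, treated as a signal. In every library a single step divided 100% of the values into whole numbers (tolerance 0.01), which makes them read counts per gene over a library-wide size factor. A single read was worth 0.547 to 1.31. Read trimming (cutadapt, Trim Galore), alignment (STAR), counting (HTSeq) and DESeq2 appear in the submitters' processing notes with no version. Build, annotation and settings: not given in the sources used here. Deposited log2 fold changes, p-values and adjusted p-values are the authors' own and were used only for comparison.

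Columns ES1 to ES24 were given an age from the deposited age sheets and a population from the deposited across-age table. The labels do not tie columns to animals or sexes, so that the fit treats the samples of an animal as independent. Of 21363 genes, the 18614 that reached 10 in 3 or more libraries were tested. limma 3.58.1 (R 4.3.3, trend and robust) was fitted to 6 group means of log2(value + 1) in all libraries, and a two-sided p under 0.05 after Benjamini-Hochberg adjustment over all tested genes made a call. edgeR 4.0.16 and DESeq2 1.42.0 were run on the recovered reads as alternatives, beside another pseudocount, no filter, quantile normalization, limma without its options, single libraries left out, single ages alone and, added after seeing the data, ES8, ES12 and ES16 left out together. The fit was also run on simulated counts with known fold changes, drawn independently for each library with a fixed spread. Those counts hold no samples that share an animal and no outlying libraries, so they cannot check the fit for either.

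Members and lists were chosen with earlier results of these data known. By rule, values are described for the 8 largest and smallest Cdh and non-clustered fold changes, the 5 for age, 2 at each end of the beta fold changes, and 2 at each end of partner lists. Genes below that rank are named where a count of 5 or fewer includes them. All 56 identifiers matched GENCODE M21, and exons of 12 overlap another gene, 7 on the other strand, among them Cdh8 with Gm15679 and Pcdh8 with Gm9748. How counting used strand is unknown here, so reads of such pairs cannot be told apart, and beta protocadherins are close copies whose reads may be shared.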

Additional observations from a re-analysis of the deposited data

Results flagged for a closer look

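In 9 of 224 groups of 4 libraries, 1 library lay far from the other 3 of its group. Chance alone flags about 1 in 20 such groups. Among GFP+ libraries these were ES5 at P80 for Cdh19, with 18.6 against 10.4 to 11.8 in the others, ES7 at P80 for Pcdhb16, with 218 against 249.9 to 255, and ES3 at P80 for Pcdh1, with 1067 against 938 to 957. ES3 was also low for Pcdh20, with 55.7 against 88.8 to 93.2. Among GFP- libraries they were ES8 at P80 for Cdh13, with 295 against 485 to 517, ES4 at P80 for Cdh6, with 279 against 128 to 144, ES6 at P80 for Pcdhb6, with 18.05 against 35.3 to 38.0, ES18 at P7 for Cdh15, with 8.32 against 0.807 to 1.97, and ES20 at P7 for Pcdh7, with 1656 against 2171 to 2245.

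For 2 members a change of the population difference between ages was called, against 2.07% of all genes. The difference of differences, P80 against P7, was -2.88 on the log2 scale for Cdh19 (limma adjusted p = 0.00429) and 1.37 for Pcdh18 (limma adjusted p = 0.0497). The call of Pcdh18 was lost under 21 alternatives, and the interaction test over the 3 ages did not call it (limma adjusted p = 0.0882).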

How the results depend on the processing

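No called member changed sign under any alternative. Of 163 called member results, 112 were called under every one, among them 33 of 44 for the population difference over ages, 4 of 6 for P80 against P7 in GFP+ nuclei and 9 of 11 in GFP- nuclei. Quantile normalization gave a median over all genes of 0.08 in the population contrast, against -0.02 as deposited.

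Counts of members moved as follows. Without ES8, ES12 and ES16, an alternative added after seeing the data, P7 gave 21 higher and 12 lower (8 and 6 with all libraries), P21 12 higher (19), GFP+ P80 against P7 2 higher and 11 lower (1 and 5), GFP+ P21 against P7 5 lower (2), GFP+ P80 against P21 1 higher and 2 lower (0), GFP- P80 against P7 3 higher (1), and the difference of differences 2 lower (1) with 4 called over the 3 ages (1). The GFP+ fold changes are unchanged there, since the 3 libraries are GFP-, and the counts move with the shared estimate of spread. ES14 is then the only P21 GFP- library, so that the P21 and 3-age counts rest on it for P21 GFP- nuclei. The libraries of P7 alone gave 19 higher and 12 lower, and those of P21 alone 10 and 3 (7 lower in the full fit). With DESeq2, GFP+ P21 against P7 had 4 lower, P80 against P21 1 higher and 1 lower, GFP- P80 against P7 2 higher, the difference of differences 2 lower and the 3-age interaction 2. Quantile normalization and limma without its options each left 0 higher in GFP+ P80 against P7 and 1 lower in P21 against P7, as did edgeR for the second. A pseudocount of 5, no filter and limma without its options left 0 higher in the difference of differences. The cause was not tested for the settings other than left-out libraries.

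Leaving out 1 library at a time gave 29 to 36 higher and 10 to 11 lower over ages, 4 to 12 and 5 to 10 at P7, 13 to 26 and 6 to 9 at P21, 12 to 23 and 6 to 8 at P80. It gave 0 to 1 higher and 4 to 7 lower for GFP+ P80 against P7, 1 to 4 lower for P21 against P7, 0 to 1 lower for P80 against P21, 1 to 2 higher and 8 to 14 lower in GFP- nuclei, 5 to 7 higher and 26 to 33 lower relative to pan-neuronal genes, 0 to 1 higher and 1 to 2 lower for the difference of differences, and 1 to 3 for the interaction. No paired analysis was possible because the columns carry library codes that the labels do not tie to animals. With 141 reads in GFP+ and 39 in GFP- libraries, Cdh15 is limited by depth, as is Cdh16 with 57 and 64.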
